A study of Mus musculus with 6 samples.

Results

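The genes described are 9 of the Notch signalling pathway, chosen by name from the 26286 genes of a count table and matched by Entrez Gene identifier: the receptors Notch1, Notch2 and Notch4, the nuclear partners Rbpj, Maml1 and Maml2, and the targets or modulators Hes1, Dtx1 and Nrarp. All 9 matched and all 9 passed the filter on low counts. RNA was sequenced from B progenitor acute lymphoblastic leukemia cells of the mouse, in 3 libraries from untreated mice (GFPhigh cells) and 3 from mice fed doxycycline (dox) for 3 days (GFPmid cells). Both groups came from the marrow of leukemic Rag1 knockout animals and from a single tri-transgenic leukemia, A024, so each replicate is another mouse with that leukemia, and a p-value reflects how such mice vary, not how leukemias do. The treatment label reads Pax5 restoration. As background on the published model and not from the labels, the leukemia carries an active form of Stat5, a tetracycline transactivator under the Vav promoter, which is active in blood cells, and a hairpin RNA against Pax5 that is made together with GFP and shut off by dox. Treatment and sort gate changed together, and dox-fed mice without the hairpin were not analysed here, so the drug, the gate and Pax5 itself cannot be told apart.

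Notch receptors are membrane proteins that are cut when a ligand of the Delta or Jagged type on a neighbouring cell pulls on them. Adam proteases make the outer cut and the gamma-secretase complex, with a presenilin as its catalytic subunit, makes the cut within the membrane. The freed intracellular domain enters the nucleus, joins the DNA-binding protein Rbpj and recruits a Mastermind coactivator (Maml1, Maml2 or Maml3), and genes such as Hes1, Dtx1 and Nrarp are then transcribed. In lymphoid progenitors Notch1 drives commitment to the T lineage, Notch2 acts in marginal zone B cells, and Pax5 is known as a repressor of Notch1 in B cell progenitors.

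Promoter sequences of 3 genes are shown because these are the member with the largest rise (Maml1), the member with the largest fall (Nrarp) and the DNA-binding partner itself (Rbpj). Each runs from 250 bases before to 50 bases after an annotated start and is taken from RefSeq on GRCm38.p6, whereas the counts were made on mm9. Capitals mark TGGGAA, the core letters that RBPJ is known to bind, or TTCCCA, the same letters on the other strand. The Maml1 window is chr11:50292287-50292586 (minus strand), that of Nrarp is chr2:25180508-25180807 (plus strand) and that of Rbpj is chr5:53590096-53590395 (plus strand, the first of 2 annotated starts).
Maml1: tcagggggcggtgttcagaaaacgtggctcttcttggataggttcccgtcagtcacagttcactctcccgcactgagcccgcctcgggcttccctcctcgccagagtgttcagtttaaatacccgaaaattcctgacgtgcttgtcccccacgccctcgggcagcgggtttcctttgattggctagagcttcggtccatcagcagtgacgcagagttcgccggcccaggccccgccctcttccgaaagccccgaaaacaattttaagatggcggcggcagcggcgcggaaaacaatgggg
Nrarp: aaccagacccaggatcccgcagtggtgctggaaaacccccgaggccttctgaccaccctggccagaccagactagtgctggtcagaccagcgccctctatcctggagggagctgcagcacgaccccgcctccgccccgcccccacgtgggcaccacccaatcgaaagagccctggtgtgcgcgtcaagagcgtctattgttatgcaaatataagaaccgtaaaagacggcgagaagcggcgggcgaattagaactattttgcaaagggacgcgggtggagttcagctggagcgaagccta
Rbpj: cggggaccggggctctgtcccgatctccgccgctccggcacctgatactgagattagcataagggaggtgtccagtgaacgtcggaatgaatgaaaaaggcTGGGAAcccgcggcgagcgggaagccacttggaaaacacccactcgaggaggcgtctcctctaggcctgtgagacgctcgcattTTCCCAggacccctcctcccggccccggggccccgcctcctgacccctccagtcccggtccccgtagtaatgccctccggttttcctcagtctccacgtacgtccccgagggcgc
The Rbpj window holds 2 matches, which begin 149 and 65 bases before the start and do not overlap, and the windows of Maml1 and Nrarp hold 0. Windows were found for 8 of the members, 10 in all, and 3 held a match, namely both of Rbpj, which share the second match, and 1 of the 2 of Maml2. Hes1 had no entry. Of all 32851 windows of 300 bases in the table, 25.6% held a match. A match describes letters only and was not tied to any measurement of binding.

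The libraries held 14185203 to 15612435 counts. Pax5 measured 93.5 to 153.8 counts per 1000000 counts (CPM) in untreated and 227.2 to 281.2 CPM in dox libraries. All 8 B lineage markers were measured in every library, with a summed level of 5723 to 5962 CPM without dox and 7420 to 8241 CPM with it. Of the 8, 7 rose and 1 fell: Cd24a, the most abundant without dox, went from 1928 ± 7.62 to 1050 ± 73.8 CPM (SD, n = 3; log2 fold change -0.88, adjusted p = 3.19e-05, edgeR). Macrophage markers summed to 6.91 to 12.6 CPM without dox and 29.3 to 38.0 CPM with it. Cd68 and Vcam1 were the most abundant without dox. Of the 10, 8 were tested, and 7 of these were called higher, Vcam1 among them. All 7 passed the filter on low counts through the dox group alone, and such genes are selected to be higher there. Cd68, which passed in both groups, was not called (log2 difference 0.25, adjusted p = 0.286, edgeR). Neutrophil markers summed to 89.5 to 114.7 CPM without dox and 115.1 to 533.9 CPM with it, with dox replicate 1 at the top. S100a9 and Ngp were the most abundant without dox. Of the 10, 8 were tested, and all 8 were called higher. Mpo, 1 of the 8, passed that filter through the dox group alone. Of all genes tested, 27% were called higher and 26.6% lower. The part of macrophage and neutrophil markers in the results on Notch genes was not tested. T and NK cell markers summed to 8.99 to 18.8 CPM and 14.3 to 19.1 CPM, led by Thy1 and Klrb1c, with Cd3e and Cd8a at 0 counts in all libraries. In bulk samples fewer cells of a type and less RNA per cell cannot be told apart.

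After dox, 3 of the 9 Notch genes rose (Maml1, Maml2 and Notch1), 2 fell (Nrarp and Rbpj) and 4 did not pass the test (Hes1, Dtx1, Notch2 and Notch4). A call required an adjusted p under 0.05 in the quasi-likelihood test of edgeR, with Benjamini-Hochberg adjustment over all 12275 genes tested. By the same rule 53.6% of all genes tested were called, with 27% higher and 26.6% lower, so 5 of 9 is a share near the background. Without dox replicate 1, the library with the most neutrophil marker RNA, 3 of the 9 rose and 1 (Nrarp) fell. The same counts held without untreated replicate 2, untreated replicate 3 or dox replicate 3. In each of these fits, and without dox replicate 1, Rbpj was not called. The part of neutrophil marker RNA in these counts was not tested. The groups did not overlap for the 5 genes called, against 62.2% of all genes tested. The median log2 fold change was 0.08 over the 9 genes and 0.01 over all genes tested. For each gene whose groups did not overlap, an exact two-sided permutation test of CPM gave p = 0.1, the smallest that 3 libraries against 3 allow.

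**Figure D1:**
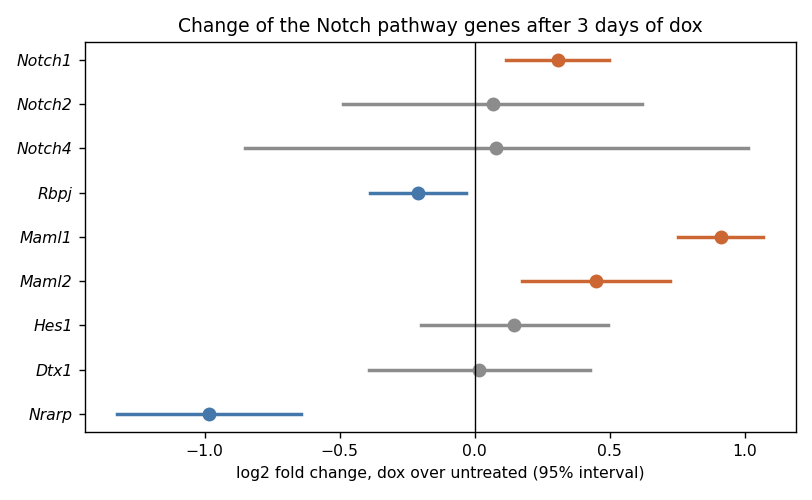
Log2 fold change, dox over untreated, of each Notch gene (point) with its 95% interval (line) from the edgeR test, orange for genes called higher, blue for genes called lower and grey for the others. Maml1 (0.91) and Nrarp (-0.98) lie farthest from 0, and the intervals of Notch2, Notch4, Hes1 and Dtx1 span 0.

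Notch1 was by far the most abundant receptor and rose slightly. Per length, as CPM divided by the gene length in kilobases (RPKM), Notch1 (Entrez Gene 18128) measured 12.3 ± 0.405 in untreated and 15.2 ± 1.64 in dox libraries (SD, n = 3 each). Its levels were 112.4, 119.4 and 118.6 CPM without dox against 143.4, 160.8 and 129.7 CPM with it, given here and below in the order of replicates 1, 2 and 3. The groups did not overlap, with the highest level in dox replicate 2. This is a log2 fold change of 0.31 (SE 0.08, adjusted p = 0.0129, edgeR), or 1.24-fold with a 95% interval of 1.08 to 1.41.

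Notch2 (18129), the receptor of marginal zone B cells, stood at 9.16, 10.4 and 16.4 CPM without dox against 14.5, 8.98 and 14.2 CPM with it. Its groups overlapped, and the log2 difference of 0.07 (SE 0.25, adjusted p = 0.839, edgeR) had an interval of -0.49 to 0.62. Notch4 (18132), best known from blood vessels, was at the edge of detection with 12, 8 and 16 counts without dox against 12, 18 and 9 counts with it. The log2 difference of 0.08 (SE 0.41, adjusted p = 0.89, edgeR) had an interval of -0.85 to 1.01, which is wide at this depth. Of the endothelial markers, the 7 other than Pecam1, which leukocytes also make, reached at most 11 counts in a library, and Tie1 had 0 in all. Pecam1 and Cdh5 led that list, which summed to 94.1 to 100.8 CPM without dox and 128.0 to 157.6 CPM with it. Of the 8, only Pecam1 was tested, and it was called higher, where 27% of all genes tested were.

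Notch3 (18131), the remaining receptor and itself known as a Notch target in T cells, measured 17.7, 13.1 and 14.6 CPM without dox against 8.03, 14.0 and 6.47 CPM with it. Dox replicate 2 lay within the untreated range. This is a log2 fold change of -0.68 (SE 0.25, adjusted p = 0.0486, edgeR), and the call was not kept when any one library other than dox replicate 2 was left out (adjusted p = 0.0608 to 0.15). Notch1 made up 78.6%, 82.2% and 77.8% of the summed RPKM of the 4 receptors in untreated and 85.7%, 85.8% and 85.9% in dox replicates 1, 2 and 3. The mean share was thus 6.26 percentage points higher after dox and the groups did not overlap (exact two-sided permutation p = 0.1).

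**Figure D2:**
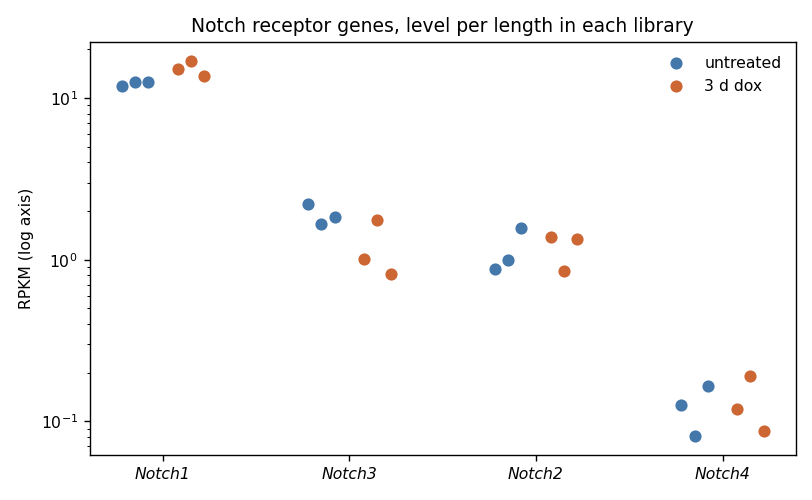
Level per length (RPKM, log axis) of the 4 Notch receptor genes, 1 point per library, blue for untreated and orange for 3 days of dox. Notch1 lies between 11.8 and 16.9 RPKM, above all points of Notch2 and Notch3, and Notch4 lies lowest.

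Of the 3 Notch genes that rose among the 9, the Mastermind coactivators Maml1 and Maml2 moved most. Maml1 (103806) measured 57.9, 57.3 and 52.9 CPM without dox against 106.5, 107.7 and 102.2 CPM with it. The untreated libraries and the dox libraries each lay close together, with a wide gap between them. This was a 1.88-fold rise (log2 fold change 0.91, SE 0.07, adjusted p = 1.34e-05, edgeR) with a 95% interval of 1.69 to 2.10.

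Maml2 (270118), a second Mastermind gene, measured 36.7, 40.2 and 40.4 CPM without dox against 47.3, 64.7 and 48.2 CPM with it. Its dox replicate 2 stood above the rest, and the groups did not overlap. The rise was 1.36-fold (log2 fold change 0.45, SE 0.12, adjusted p = 0.0122, edgeR). Maml3, the third of these genes, did not pass the test (0.28, SE 0.19, adjusted p = 0.252, edgeR).

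Rbpj (19664), which anchors the complex on DNA, measured 76.5, 84.1 and 80.2 CPM without dox against 64.9, 75.0 and 68.4 CPM with it. All dox libraries lay below all untreated ones, but the gap between dox replicate 2 and untreated replicate 1 was small. Rbpj fell by 0.21 on the log2 scale (SE 0.08, adjusted p = 0.0485, edgeR). The call was not kept without untreated replicate 2, untreated replicate 3, dox replicate 1 or dox replicate 3 (adjusted p = 0.0889 to 0.152), nor with the DESeq2 test (adjusted p = 0.0531). Rbpjl, a paralog of Rbpj that is known from the pancreas, had 7, 4 and 13 counts without dox against 27, 38 and 22 counts with it (log2 fold change 1.81, SE 0.43, adjusted p = 0.0066, edgeR). Rbpjl passed the filter on low counts through the dox group alone, so it is selected to be higher there.

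**Figure D3:**
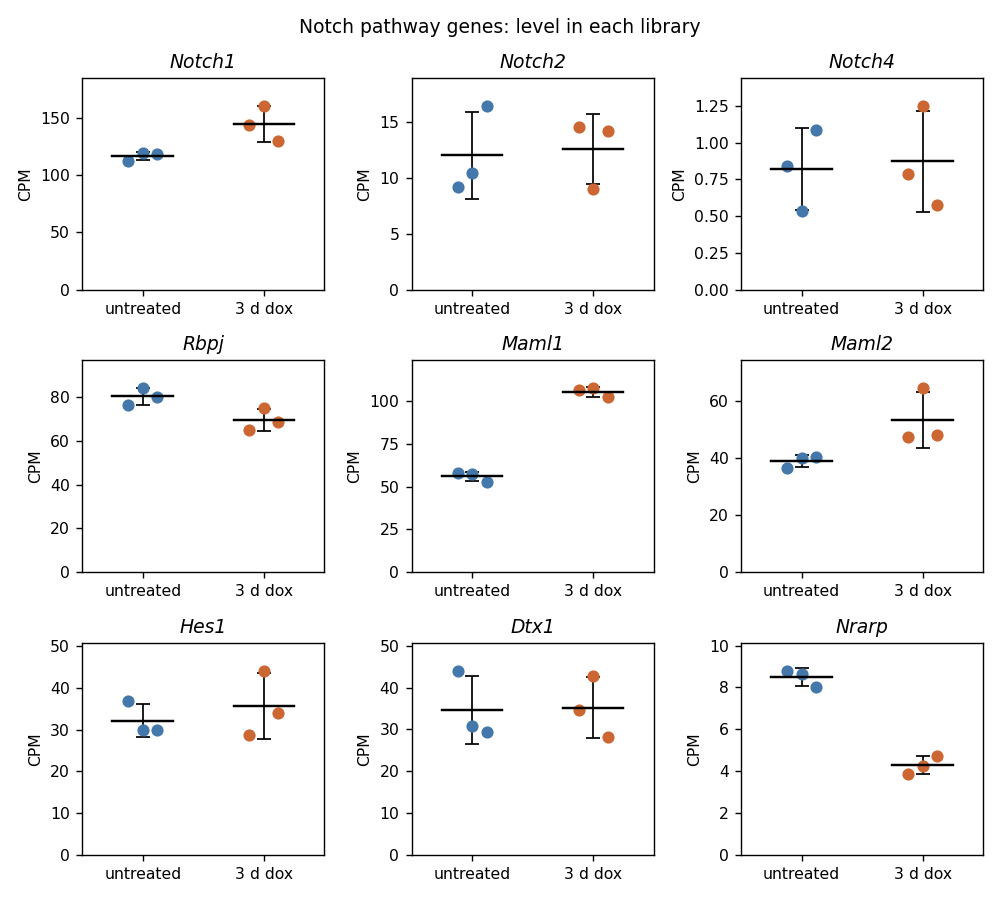
Level of each Notch gene in CPM, 1 point per library, with the group mean (horizontal line) and SD (error bar), each panel with its own axis from 0. Maml1 and Nrarp show the widest gaps between groups, while the points of Hes1, Dtx1, Notch2 and Notch4 overlap.

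The 3 target genes among the members did not move as one. Nrarp (67122), an ankyrin repeat protein that is induced by Notch and limits it in a feedback loop, measured 8.81, 8.65 and 8.02 CPM without dox against 3.88, 4.25 and 4.74 CPM with it. Even the highest dox library was well below the lowest untreated one. The log2 change was -0.98 (SE 0.15, adjusted p = 0.000576, edgeR), which is 1.98-fold lower.

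Hes1 (15205), a transcriptional repressor and the best known Notch target, measured 36.8, 29.9 and 29.8 CPM without dox against 28.6, 44.1 and 33.9 CPM with it. The lowest and the highest level were both in dox libraries. The log2 difference was 0.15 (SE 0.15, adjusted p = 0.45, edgeR) with an interval of -0.20 to 0.49. Dtx1 (14357), a ubiquitin ligase that acts on Notch receptors, measured 44.1, 30.9 and 29.3 CPM without dox against 34.7, 42.7 and 28.1 CPM with it. Its groups overlapped almost fully, with a log2 difference of 0.02 (SE 0.18, adjusted p = 0.947, edgeR) and an interval of -0.39 to 0.43.

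Ordered by RPKM in untreated libraries, Hes1 (22.1 ± 2.77) was followed by Rbpj (13.8 ± 0.647), Notch1, Maml1 (10.1 ± 0.488), Dtx1 (9.36 ± 2.19), Maml2 (5.80 ± 0.310), Nrarp (3.29 ± 0.161), Notch2 (1.14 ± 0.371) and Notch4 (0.124 ± 0.0418; SD, n = 3). Among neighbours in this order, only Maml1 and Dtx1 overlapped in their ranges. After dox the order was Hes1 (24.5 ± 5.43), Maml1 (19.0 ± 0.515), Notch1, Rbpj (11.9 ± 0.879), Dtx1 (9.47 ± 1.97), Maml2 (7.92 ± 1.45), Nrarp (1.66 ± 0.166), Notch2 (1.20 ± 0.295) and Notch4 (0.132 ± 0.0524). Maml1 had passed Rbpj and Notch1, and the ranges of Rbpj and Dtx1, and of Dtx1 and Maml2, overlapped.

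The 3 genes whose log2 CPM followed that of Maml1 most closely over the 6 libraries were Ralgds (Pearson r = 0.9991), Dlg1 (0.9989) and Pcmtd2 (0.9987). Their log2 fold changes were 1.07, 0.34 and 0.78. With 2 well separated groups such values are common, and 1251 of 12274 other genes reached an r of at least 0.95. These figures describe the libraries, which all genes share.

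Of 64 other genes of the pathway, in 7 lists by role, 49 were tested, and 23 rose, 4 fell and 22 did not pass. This share of 55.1% called is near the 53.6% of all genes tested. The median log2 fold change of the 49 was 0.27, against 0.01 over all genes tested. Of the 49, 6 reached the minimum count in every dox library but not in every untreated library (Dll4, Jag2, Aph1c, Dtx3, Rbpjl and Cr2), and a gene that passes through the dox group alone is selected to be higher there.

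**Figure D4:**
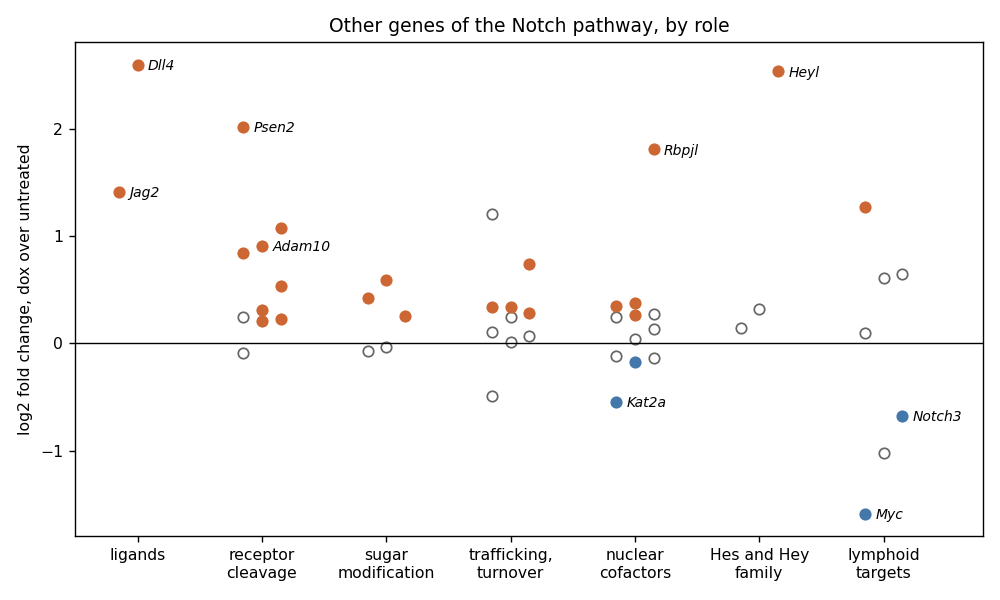
Log2 fold change, dox over untreated, of the 49 tested pathway genes other than the 9 members, 1 point per gene, by role. Filled orange points were called higher, filled blue points lower, and open points were not called. Dll4 (2.60) and Heyl (2.54) lie highest and Myc (-1.59) lies lowest.

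Of 10 tested genes of receptor cleavage, 8 rose and 2 (Psenen and Aph1a) did not pass, with a median of 0.42, where 27% of all genes tested were called higher. The 8 include Aph1c, which reached the minimum count in the dox group alone. Psen2, a catalytic presenilin, measured 16.0, 14.9 and 15.7 CPM without dox against 66.3, 62.4 and 60.2 CPM with it. That 4.05-fold rise (log2 fold change 2.02, SE 0.08, adjusted p = 6.94e-07, edgeR) left no overlap between the groups. Per length, Psen2 went from 7.58 ± 0.281 to 30.7 ± 1.49 RPKM (SD, n = 3). Adam10, the main protease of the outer cut, rose 1.87-fold, from 260.8 ± 14.9 to 488.7 ± 28.5 CPM, and Furin, which processes the receptor on its way to the surface, rose 1.79-fold, from 14.1 ± 1.78 to 25.2 ± 4.25 CPM. Aph1b and Aph1c, which also rose, are close copies, so the split of reads between them is uncertain. Ncstn, which rose by 0.31, shares its position with Copa on the other strand.

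The ligand genes were at or below 3.49 CPM in every library, except Dll4 in dox replicate 2. Dll4, a Delta ligand, measured 1.68, 1.28 and 0.544 CPM without dox against 3.49, 14.4 and 3.46 CPM with it. Its log2 fold change of 2.60 (SE 0.64, adjusted p = 0.00733, edgeR) rests in part on dox replicate 2 and was 1.57 without that library. Jag2, a Jagged ligand, went from 0.662 ± 0.117 to 1.77 ± 0.108 CPM (log2 fold change 1.41, SE 0.29, adjusted p = 0.00282, edgeR). Dll4 and Jag2 passed the filter on low counts through the dox group alone, so they are selected to be higher there. Dll1 was not tested and had 3 counts in all untreated and 33 in all dox libraries, a ratio of 10.7 with an exact binomial 95% interval of 3.36 to 54.5 that covers counting error only. Jag1 had 1 and 2 counts in all, and Dll3 had 4 and 2. Markers of stroma, led by Vcam1 and Col1a1, summed to 1.88 to 5.52 CPM without dox and 11.8 to 14.2 CPM with it. Of the 8, 3 were tested, and 2 of these (Vcam1 and Col1a1) were called higher, where 27% of all genes tested were. Both passed the filter on low counts through the dox group alone, and Cxcl12, also tested, was not called (adjusted p = 0.258, edgeR). The part of these markers in the ligand levels was not tested. Vcam1 is also in the macrophage list, and the 7 others summed to 0.805 to 2.94 CPM without dox and 2.24 to 3.90 CPM with it.

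Among 5 genes that modify receptor sugars, 3 rose (Poglut1, Rfng and Mfng) and 2 did not pass (Lfng and Pofut1), with a median of 0.25. This is 60% called, against 53.6% of all genes tested. Poglut1, a glucosyltransferase, rose by 0.59 (SE 0.15) and the Fringe gene Rfng by 0.42 (SE 0.11). Mfng, another Fringe gene, rose by 0.25 (SE 0.09), and its call was not kept when any one library other than untreated replicate 1 was left out, with scaling by total counts alone (adjusted p = 0.0556, edgeR), with no low-count filter (0.0881, edgeR) or in the DESeq2 test (0.0546). Of 10 tested genes of receptor trafficking and turnover, 4 rose (Mib2, Itch, Fbxw7 and Dtx3l) and 6 did not pass, with a median of 0.27. Here 40% were called, below the 53.6% of all genes tested. Mib2, a ubiquitin ligase for ligands, rose by 0.74 (SE 0.13), Itch, a ligase that promotes receptor decay, by 0.34 (SE 0.07), and Fbxw7, which marks the active Notch1 fragment and Myc for destruction, by 0.34 (SE 0.07). Dtx3l rose by 0.28 (SE 0.08), shares its position with Parp9 on the other strand, and was not called without dox replicate 1.

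Of 12 tested nuclear cofactors beyond the members, 4 rose (Crebbp, Ep300, Kat2b and Rbpjl), 2 fell (Kat2a and Ctbp1) and 6 did not pass, with a median of 0.19. The share called was 50%, near the 53.6% of all genes tested. The acetyltransferase genes went in both directions: Crebbp rose by 0.38 (SE 0.09) and Ep300 by 0.35 (SE 0.09), while Kat2a went from 131.7 ± 0.894 to 90.5 ± 2.09 CPM (log2 fold change -0.54, SE 0.06, adjusted p = 9.43e-05, edgeR). Kat2b, a close relative of Kat2a, rose by 0.27 (SE 0.10), with overlapping groups. The corepressor gene Ctbp1 fell by 0.17 (SE 0.07). Neither Kat2b nor Ctbp1 kept its call in most fits without 1 library, Kat2b losing it without untreated replicate 2, untreated replicate 3, dox replicate 1 or dox replicate 3 and Ctbp1 without any one of the 6. Kat2b was also not called with DESeq2 size factors (adjusted p = 0.0516, edgeR), with total counts alone (0.0567) or with no low-count filter (0.0845).

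Heyl, a repressor of the Hes and Hey family that Notch is known to induce, was the gene of that family that rose. In that family 1 of 3 tested was called higher, against 27% of all genes tested. Heyl measured 17.6, 14.2 and 13.3 CPM without dox against 113.1, 78.9 and 69.4 CPM with it. All dox libraries were several times above the untreated ones, dox replicate 1 most. The rise was 5.80-fold (log2 fold change 2.54, SE 0.19, adjusted p = 1.23e-05, edgeR), and the log2 fold change was 2.30 without dox replicate 1. Hes5, another classical target, measured 9.09, 7.98 and 9.86 CPM without dox against 10.4, 12.5 and 10.8 CPM with it and missed the threshold (log2 difference 0.32, SE 0.14, adjusted p = 0.0757, edgeR). Hes6, which counteracts Hes1, did not pass either (0.15, SE 0.08, adjusted p = 0.127, edgeR). The groups did not overlap for Hes5 or for Hes6, which also held for 62.2% of all genes tested. Hes2, Hes7 and Hey2 had 0 counts in all 6 libraries, which allows up to 0.192 to 0.21 CPM in a library (3 counts), and Hes3 and Hey1 had at most 2 counts in a library.

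Among 7 tested lymphoid genes known as Notch targets, 1 rose (Cr2), 2 fell (Myc and Notch3) and 4 did not pass, with a median of 0.09. This is 42.9% called, against 53.6% of all genes tested. Myc, which Notch1 activates in T cell leukemia, measured 289.7, 276.1 and 317.2 CPM without dox against 87.8, 116.5 and 90.1 CPM with it. It was 3.00-fold lower (log2 fold change -1.59, SE 0.11, adjusted p = 1.03e-05, edgeR), with no overlap between groups. Cr2, a complement receptor gene of mature B cells that Notch2 is known to induce, went from 1.16 ± 0.459 to 2.81 ± 0.0749 CPM (log2 fold change 1.27, SE 0.31, adjusted p = 0.00726, edgeR). Cr2 passed the filter on low counts through the dox group alone, so it is selected to be higher there. The T lineage target Ptcra was at 0 counts in all libraries, as was Cd3e.

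**Figure D5:**
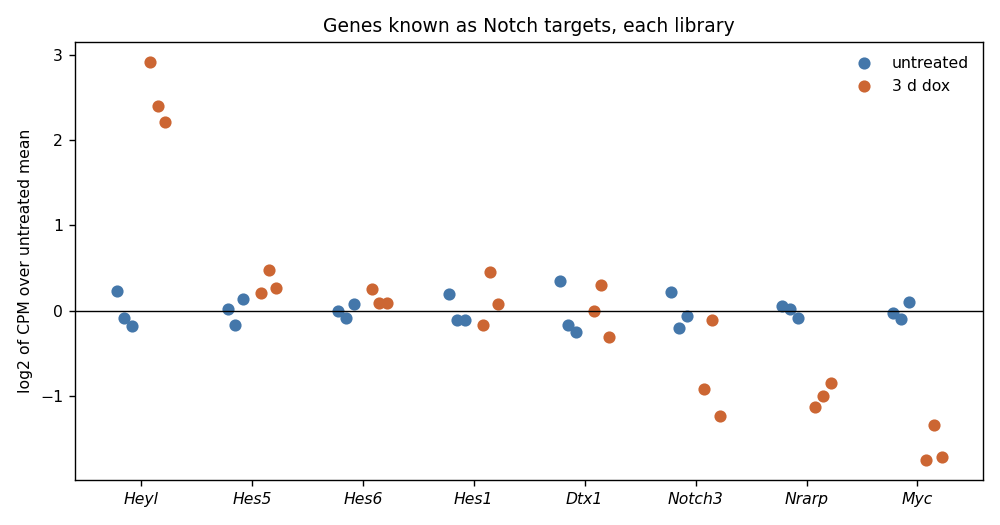
Log2 of CPM over the untreated mean for 8 genes known as Notch targets or relatives of them, 1 point per library, blue for untreated and orange for 3 days of dox. Heyl, and by a small margin Hes5 and Hes6, lie above the untreated points in all 3 dox libraries, though Hes5 and Hes6 were not called. Nrarp and Myc lie below the untreated points in all 3, while Hes1, Dtx1 and Notch3 overlap.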

How the data were processed

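RNA was sequenced in 6 libraries, 3 per group, assigned by the sample labels. The deposited table gives whole-number read counts, made with featureCounts after CASAVA 1.8.2 on mm9 per the submitters' processing notes, beside Entrez Gene identifiers and lengths. Aligner, annotation and strandedness were not given in the sources used here, and 6 members (Notch1, Notch4, Rbpj, Maml1, Maml2 and Nrarp) share their position with a gene annotated on the other strand, whose reads cannot be told apart from theirs. The 6 per-sample files held the same counts as the table. Symbols came from RefSeq (GRCm38.p6), for 24176 of 26286 identifiers.

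Genes were filtered with filterByExpr (minimum count 10), which left 12275 genes with 99.93% of counts. Counts were scaled by TMM (factors 0.991 to 1.01), and CPM and RPKM, the latter from the deposited lengths, use that scale. The comparison was a quasi-likelihood test (edgeR 4.0.16, R 4.3.3) without covariates. An SE is the log2 fold change divided by the root of F. In simulated counts for this comparison, in which 197 of 200 changed genes were among the 12165 tested, 65.4% of genes changed 1.5-fold, 87.9% of those changed 2-fold and all (100%) of those changed 4-fold were recovered. False calls made up 9.44% (17 of 180). Only 200 genes were changed there, whereas 53.6% of all genes tested were called in the data. The shares recovered and falsely called in the data can therefore differ from these.

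The members and lists were chosen with earlier results of these data known. Named were all members, in each pathway list the 3 genes with the smallest p and those behind a count of 5 or fewer, 3 genes most like the member of smallest p, and the 2 markers per list most abundant without dox; a gene that these rules name is not reported here. Other genes given with values were chosen after these had been seen. Alternatives were other scalings, filters and tests (DESeq2 1.42.0, limma 3.58.1), the replicate number as a block, and leaving out each library.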

Additional observations from a re-analysis of the deposited data

How the results depend on the processing

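The rises of Maml1, Maml2 and Notch1 and the fall of Nrarp kept their direction and their call under every alternative scaling, filter and test, with the replicate block and without any one library. Without single libraries the adjusted p reached 0.048 for Notch1 and 0.0479 for Maml2, against 0.000208 for Maml1 and 0.0037 for Nrarp (edgeR). Without dox replicate 2 the log2 fold change was 0.22 for Notch1 (0.31 with all libraries) and 0.29 for Maml2 (0.45 with all libraries). The count of Notch genes lower after dox was 1 with upper-quartile scaling, with a minimum of 1 CPM in 3 libraries and with the DESeq2 test, and 1 to 2 without single libraries, because Rbpj was then not called. Its log2 fold change was -0.18, -0.20 and -0.21 in those 3 fits and -0.27 to -0.17 without single libraries. The count of other pathway genes lower was 2 with upper-quartile scaling and with the 1 CPM minimum, and 2 to 4 without single libraries. Ctbp1 and Notch3 were the genes that lost the call in both fits. Differences that were never called changed sign: Dtx1 was at -0.020 with no low-count filter, and without single libraries Dtx1 ran from -0.15 to 0.22, Notch2 from -0.10 to 0.36, Notch4 from -0.26 to 0.33 and Hes1 from -0.038 to 0.28. Same-numbered libraries deviated from their group means together with r = 0.305, 0.288 and -0.0373, and differently numbered ones with r = -0.336 to 0.0248. A factor shared by replicate number was not tested. The labels give no pairing, so the main test used none. With the replicate block the counts were 3434 genes higher and 3356 lower (3316 and 3266 without it), 3 and 2 Notch genes, and 25 and 4 other pathway genes, and Ctbp1 lost its call (adjusted p = 0.0539, edgeR). Changes below about 1.5-fold in genes with few counts, such as Notch4 and the ligands, are limited by depth.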

Other observations

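Bcl11b, a T lineage transcription factor and Notch target that was singled out after its values had been seen, varied widely among mice of the same group. It measured 40.0, 1.54 and 10.9 CPM without dox against 17.7, 2.71 and 5.31 CPM with it. Its log2 difference between groups was -1.02 (SE 0.90, adjusted p = 0.368, edgeR). Il2ra, another gene of that list, was by contrast even, at 424.0 to 463.9 CPM without dox and 400.2 to 521.0 CPM with it.

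The remaining marker lists gave these summed levels. Erythroid markers, led by Hba-a1 and Hbb-b1, summed to 3.82 to 5.31 CPM without dox and 1.25 to 7.50 CPM with it, and the 3 that were tested (those and Alas2) did not pass the test. Markers of plasmacytoid dendritic cells summed to 501.9 to 621.2 CPM without dox and 614.2 to 841.0 CPM with it. They were led by Ly6d and Irf8, which B progenitors also express. Of the 8, 5 were tested, and 2 of these (Tcf4 and Irf8) were called higher. Ly6d was not called (adjusted p = 0.798, edgeR). Genes that respond to cell handling summed to 104.0 to 130.0 CPM without dox and 178.8 to 269.6 CPM with it. Jun and Junb were the most abundant without dox, and Jun and Hspa1b with it. Of the 8, 7 were tested, and 4 of these were called higher. Among the 4, Atf3 and Hspa1a passed the filter on low counts through the dox group alone. The share called higher over all genes tested was 27%.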
